A study of Mus musculus with 17 samples.

Results

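The genes described here are the suppressors of cytokine signalling (SOCS) and the growth hormone and STAT genes that they act on. They were chosen by symbol: Socs1, Socs2, Socs3, Socs5, Cish, Stat3, Stat5a, Stat5b, Ghr and Igf1, which are 10 of the 21982 genes in the deposited count table. Their RNA was counted in mRNA-seq libraries of brown adipose tissue, the fat that makes heat, with 1 library per mouse. Young adult C57BL/6 mice lacked Nocturnin (gene symbol Noct, a circadian phosphatase) or were wild-type littermates. Each mouse spent 4 h alone and without food, in the cold at 6 °C or at room temperature, 22 °C. The 4 groups were knockout at 6 °C (4 mice, 3 male and 1 female), knockout at 22 °C (4 mice, 3 male and 1 female), wild type at 6 °C (5 mice, 1 male and 4 female) and wild type at 22 °C (4 mice, 1 male and 3 female). The labels give ages of 11.14 to 23.57 with no unit. The knockout is labelled Noc-/- with no tissue restriction given, so every cell type in the tissue and every organ that signals to it may lack the gene. The extent of the deletion is not stated in the labels. All mice were fasted and single housed, so the 22 °C groups are not freely fed or group-housed mice.

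Growth hormone binds its receptor on the cell surface, and the associated Janus kinase then phosphorylates STAT5 proteins, which enter the nucleus and switch on target genes. Among those targets are Igf1, which encodes the growth factor that carries much of the hormone's action, and the SOCS genes Cish and Socs2, whose proteins dampen the same signal in a feedback loop. Other cytokines, leptin and interferons use the same kinases with other STAT proteins, and Socs1 and Socs3 restrain those branches. Adipocytes carry the growth hormone receptor, and the heat programme of brown fat is driven by noradrenaline from sympathetic nerves.

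Noct itself was first compared with the labels. Noct averaged 22.6 ± 4.46 CPM, a read count relative to the TMM-scaled library size, in knockouts at 6 °C (SD, n = 4), against 346 ± 81.7 CPM in wild types at 6 °C (n = 5). At 22 °C it averaged 13.2 ± 14.3 CPM in knockouts and 139 ± 35.6 CPM in wild types (n = 4 each). Noct fell in the knockout at both temperatures, by 4.11 on the log2 scale at 6 °C (edgeR adjusted p = 0.00218) and by 3.57 at 22 °C (adjusted p = 0.0200). Library totals ran from 18410748 to 47598200 counts, and mitochondrially encoded genes took 43.4 to 57.3% of each. The 8 brown adipocyte markers were all detected, with a summed level of 10000 to 13580 CPM in knockouts at 6 °C, 6094 to 8484 CPM in knockouts at 22 °C, 10670 to 14220 CPM in wild types at 6 °C and 5944 to 7732 CPM in wild types at 22 °C. The 10 skeletal muscle markers summed to 21.5 to 933 CPM over the libraries, with all groups overlapping. In tissue extracts of this kind, fewer cells of a type and less RNA per cell cannot be told apart.

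At 6 °C, 3 of the 9 tested members were called in both genotypes. Of all tested genes, 21.6% were called in knockouts and 27.6% in wild types. Socs2, the feedback inhibitor of growth hormone signalling, rose 9.82-fold in knockouts and 6.61-fold in wild types. Stat5a, one of the STAT5 transcription factors, fell by 1.76 on the log2 scale in knockouts and by 1.97 in wild types, and Stat5b fell by 0.48 in knockouts and by 0.53 in wild types. The Stat5b call was weak: in knockouts it was kept in 10 of the 31 other fits tried. Within the majority sex of each genotype Stat5b passed in neither. Igf1 fell in wild types, by 1.49, while in knockouts its change of -0.26 did not pass. The receptor Ghr, Stat3, Cish, Socs3 and Socs5 passed in neither genotype. Here and below a gene is called when its p-value from edgeR's quasi-likelihood test, adjusted by the Benjamini-Hochberg method over 12486 tested genes, is below 0.05, and log2 fold changes carry the SE of the fitted coefficient.

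The members were present at very different levels. On the RPKM scale, which divides by gene length, Ghr was the highest member in every group, with a level of 23.0 ± 6.45 RPKM in knockouts at 6 °C, 25.1 ± 2.29 in knockouts at 22 °C, 18.6 ± 1.03 in wild types at 6 °C and 24.2 ± 2.36 in wild types at 22 °C (SD, n = 4, 4, 5 and 4). Ghr did not overlap the next member in any group. At 22 °C the next 3 were Stat5a, Stat5b and Socs5, with mean levels of 5.28 to 7.05 RPKM, and neighbours among these 3 overlapped. At 6 °C Socs5 stood second, at 5.03 ± 0.632 RPKM in knockouts and 5.58 ± 0.617 RPKM in wild types, and Stat5a had dropped to sixth place in both genotypes. Socs2 moved the other way in the order. It was the eighth of the 10 members at 22 °C, at 0.413 ± 0.204 RPKM in knockouts and 0.902 ± 0.737 RPKM in wild types, and at 6 °C it reached 3.86 ± 1.69 RPKM in knockouts and 4.48 ± 1.06 RPKM in wild types, overlapping Stat5b. Igf1 and Cish lay between 0.704 and 2.31 RPKM in mean level, and Socs3 was ninth in every group, with means of 0.182 to 0.303 RPKM.

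This order depends on the lengths used. The lengths behind the authors' RPKM values equal all annotated exons of a gene joined together for 8 of the 10 members, and differ from that for Socs1 and Socs5. For Socs2 this is 9531 bases, against 2222 in its longest protein-coding transcript, and for Stat5a 7133 against 3888 (GENCODE vM21). Levels per longest coding transcript were computed as well, a choice made after the data had been seen. On that scale Ghr was still first, and Socs3 and Socs1 last, in every group. Socs2 stood second at 6 °C, at 16.6 ± 7.27 in knockouts and 19.2 ± 4.54 in wild types, and overlapped no neighbour. Stat5a stood second at 22 °C, at 11.7 ± 3.42 in knockouts and 12.6 ± 1.94 in wild types (SD). Fold changes of a gene between groups do not depend on its length.

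**Figure D1:**
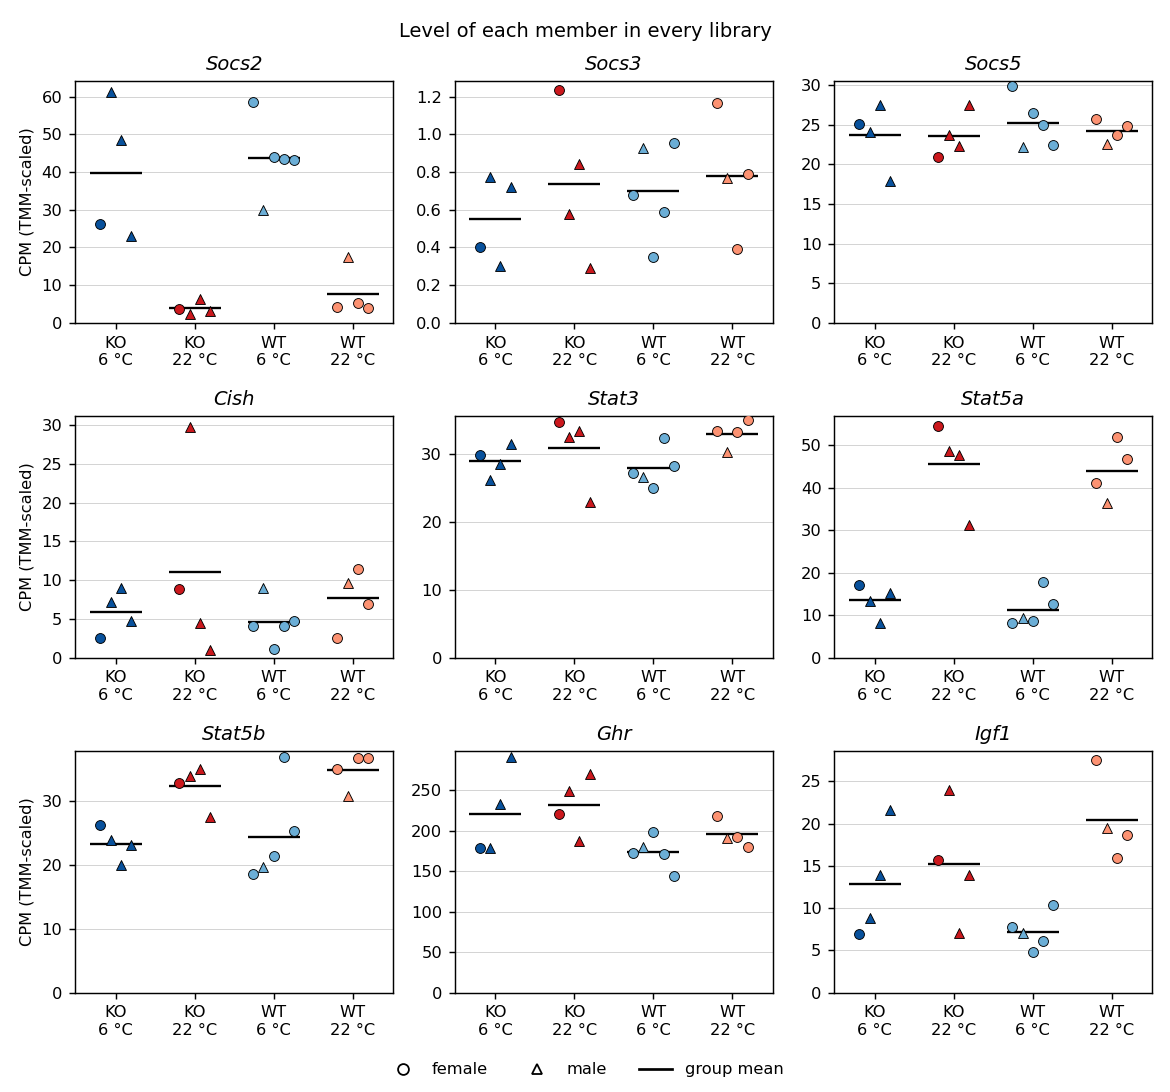
Level of 9 members in every library, in CPM after TMM scaling, with 1 panel per gene and the groups in the order knockout 6 °C, knockout 22 °C, wild type 6 °C and wild type 22 °C. Circles are female mice, triangles are male mice and the bar is the group mean; Socs2 was higher and Stat5a lower in all 9 libraries at 6 °C than in all 8 at 22 °C, while the groups overlapped in Socs3, Socs5, Cish, Stat3 and Ghr.

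Of the 9 members that passed the low-count filter, 1 rose and 2 fell at 6 °C in knockouts, where 21.6% of all tested genes were called, 11.6% as risen and 10.0% as fallen. In wild types 1 rose and 3 fell, where 27.6% of all tested genes were called, 14.3% as risen and 13.3% as fallen. The median log2 change over the 9 members was -0.26 in knockouts and -0.25 in wild types, against -0.02 and -0.03 over all tested genes. Socs1 was the member that did not pass the filter.

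Ghr encodes the growth hormone receptor, the entry point of the pathway. Its level was 178, 179, 234 and 292 CPM in knockouts at 6 °C, against 221, 249, 187 and 270 CPM in knockouts at 22 °C. In wild types it was 173, 180, 199, 172 and 144 CPM at 6 °C, against 219, 192, 193 and 180 CPM at 22 °C. The groups overlapped in each genotype, and the log2 fold change at 6 °C was -0.08 ± 0.15 in knockouts (95% interval -0.39 to 0.24, adjusted p = 0.787) and -0.17 ± 0.14 in wild types (-0.47 to 0.13, adjusted p = 0.410). In limma tests on log2(RPKM + 1) and log2(RPKM + 0.1) of the authors' values, the fall in wild types was 0.36 and 0.37. Both passed, with adjusted p-values of 0.0461 and 0.0462. RPKM values carry no TMM scaling. The TMM factors were 0.888 to 1.06 in wild types at 6 °C and 1.09 to 1.15 in wild types at 22 °C. A higher factor lowers CPM and leaves RPKM as it is. The part of this scaling in the RPKM result was not tested.

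Igf1, insulin-like growth factor 1, is the best known product of growth hormone signalling and is made by many tissues besides the liver. In wild types its level was 7.76, 7.03, 4.77, 6.11 and 10.4 CPM at 6 °C, against 27.5, 19.5, 15.9 and 18.6 CPM at 22 °C. Every wild type at 6 °C lay below every wild type at 22 °C, and Igf1 fell by 1.49 ± 0.33 on the log2 scale (95% interval -2.18 to -0.79, adjusted p = 0.00332). In knockouts its level was 6.98, 8.86, 13.9 and 21.6 CPM at 6 °C, against 15.7, 24.0, 7.03 and 13.95 CPM at 22 °C. The knockout groups overlapped across most of their range, and the log2 change was -0.26 ± 0.35 (-0.997 to 0.47, adjusted p = 0.657). With each library left out in turn it ran from -0.605 to 0.06 and never passed. The value of 0.06 came without knockout replicate 2 at 22 °C, the highest of its group.

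The Igf1 responses of the genotypes differed by 1.22 ± 0.48 on the log2 scale, knockout minus wild type (95% interval 0.21 to 2.24). The unadjusted p of that difference was 0.0206 and the adjusted p was 0.9997, so a difference between the genotypes was not shown. At 6 °C Igf1 was 0.71 ± 0.39 higher on the log2 scale in knockouts than in wild types, and at 22 °C the same difference was -0.51 ± 0.37, and neither passed (adjusted p = 0.9991 and 0.9975). Among the female wild types alone the cold response was -1.51 (adjusted p = 0.0133) and among the male knockouts alone -0.02 (adjusted p = 0.985). These 2 sets differ in sex as well as in genotype, so they do not compare the genotypes. The female knockouts, 1 mouse at each temperature, had 6.98 CPM at 6 °C and 15.7 CPM at 22 °C. Macrophages make Igf1, and the 8 macrophage markers, all detected in every group, summed to 48.8 to 77.0 CPM in knockouts at 6 °C and 37.9 to 46.3 CPM in knockouts at 22 °C, without overlap. In wild types they summed to 44.9 to 64.3 CPM at 6 °C and 44.4 to 62.1 CPM at 22 °C. Of the 8 macrophage markers 1, Cd163, was called, and it rose in both genotypes. That is 12.5% of the markers, beside 21.6% of all tested genes in knockouts and 27.6% in wild types. The part of macrophages in the Igf1 values was not tested.

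Stat5a and Stat5b encode the 2 closely related STAT5 proteins that carry the growth hormone and prolactin signals. Stat5a had 17.0, 13.4, 8.28 and 15.1 CPM in knockouts at 6 °C, against 54.5, 48.6, 47.6 and 31.1 CPM in knockouts at 22 °C. In wild types it had 8.16, 9.42, 8.69, 17.7 and 12.6 CPM at 6 °C, against 41.1, 36.4, 51.8 and 46.6 CPM at 22 °C. All 9 libraries at 6 °C lay below all 8 at 22 °C. Stat5a fell by 1.76 ± 0.22 on the log2 scale in knockouts (95% interval -2.23 to -1.29, adjusted p = 7.40e-05) and by 1.97 ± 0.21 in wild types (-2.41 to -1.53, adjusted p = 1.71e-05). The call held in each of the fits that left out 1 library, where the adjusted p reached at most 0.000414 in knockouts and 0.000144 in wild types. Within the majority sex of each genotype the change was -1.79 in male knockouts and -1.97 in female wild types (adjusted p = 0.00158 and 0.000301).

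Stat5b changed in the same direction and by less. It had 26.3, 24.0, 20.0 and 23.1 CPM in knockouts at 6 °C, against 32.9, 33.9, 35.1 and 27.5 CPM in knockouts at 22 °C. In wild types it had 18.5, 19.7, 21.4, 37.0 and 25.3 CPM at 6 °C, against 35.1, 30.9, 36.9 and 36.8 CPM at 22 °C. The knockout groups did not overlap, and in wild types replicate 4 at 6 °C alone reached the 22 °C range. Stat5b fell by 0.48 ± 0.16 on the log2 scale in knockouts (95% interval -0.82 to -0.14, adjusted p = 0.0429) and by 0.53 ± 0.15 in wild types (-0.85 to -0.21, adjusted p = 0.0158). The knockout call stood at the edge of the threshold: it was lost in 14 of the 17 fits that left out 1 library, with adjusted p-values of 0.0514 to 0.139, and was kept without wild-type replicates 1 or 4 at 6 °C or without knockout replicate 4 at 22 °C. Within the majority sex it passed in neither genotype, with a change of -0.53 in male knockouts and -0.50 in female wild types (adjusted p = 0.0994 and 0.0739).

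The balance of the 2 STAT5 genes was then compared within each library. The Stat5a to Stat5b ratio of RPKM levels was 0.503, 0.433, 0.322 and 0.509 in knockouts at 6 °C, against 1.29, 1.11, 1.05 and 0.878 in knockouts at 22 °C. In wild types it was 0.342, 0.372, 0.315, 0.371 and 0.386 at 6 °C, against 0.910, 0.913, 1.09 and 0.984 at 22 °C. With these lengths the ratio lay around 1 at 22 °C and below 1 in every library at 6 °C. With the lengths of the longest coding transcripts, tried after the data had been seen, it was 0.556 to 0.879 at 6 °C and 1.52 to 2.22 at 22 °C in knockouts, and 0.544 to 0.666 at 6 °C and 1.57 to 1.88 at 22 °C in wild types. Whether Stat5a equals or exceeds Stat5b at 22 °C thus depends on the lengths, while the difference of the ratio between temperatures, as a fold, does not. The mean ratio was 0.442 ± 0.0869 at 6 °C and 1.08 ± 0.169 at 22 °C in knockouts, and 0.357 ± 0.0284 at 6 °C and 0.974 ± 0.0846 at 22 °C in wild types (SD). A two-sided exact permutation test over libraries gave p = 0.0286 in knockouts and p = 0.0159 in wild types, each the smallest that these group sizes allow, and 0.0572 for both after Benjamini-Hochberg adjustment over 4 such comparisons. The ratio did not pass between genotypes at 6 °C or at 22 °C, where the exact permutation p was 0.111 and 0.343 before adjustment. This ratio was chosen after the values of both genes had been seen. The mature transcripts of the genes share 608 stretches of 50 bases, 14.6% of those in Stat5a and 11.1% of those in Stat5b. A read that lies wholly within shared sequence cannot be assigned to one gene with certainty. How many such reads the libraries held was not tested.

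**Figure D2:**
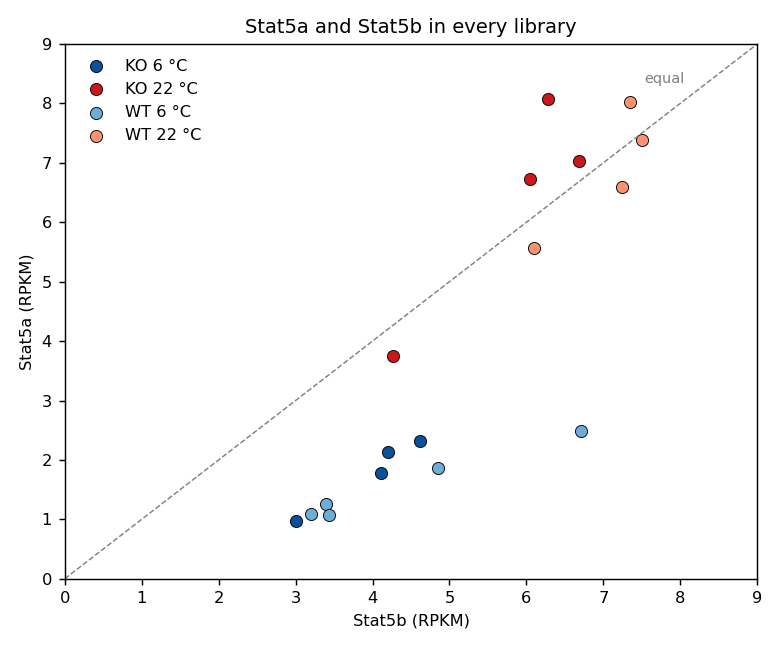
Stat5a level (vertical axis, RPKM) against Stat5b level (horizontal axis, RPKM), with 1 point per library coloured by group and a dashed line where both are equal. The libraries at 22 °C lie along the line with ratios of 0.878 to 1.29, and those at 6 °C lie below it with ratios of 0.315 to 0.509; the place of the line depends on the gene lengths behind RPKM.

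The STAT genes are neighbours on chromosome 11 (GRCm38, GENCODE vM21 positions). Stat5b spans chr11:100780731-100850724 on the minus strand and Stat5a spans chr11:100859351-100885169 on the plus strand, so that their annotated starts face away from each other 8627 bases apart. Stat3 follows at chr11:100885098-100939540 on the minus strand, and its end overlaps the end of Stat5a by 72 bases, where reads counted without strand could belong to either gene. Within 150 kb of Stat5a lie 8 other protein-coding genes, 4 of which were tested under their annotated symbols. Of those, Kat2a, a histone acetyltransferase, fell in both genotypes, by 0.63 ± 0.20 on the log2 scale in knockouts (adjusted p = 0.0344) and by 0.73 ± 0.19 in wild types (adjusted p = 0.00833). Rab5c, Ghdc and Atp6v0a1 passed in neither, with log2 changes of -0.14 to 0.31 in knockouts and 0.01 to 0.11 in wild types. These neighbours were named for their position alone.

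The sequences directly upstream of annotated Stat5b and Stat5a first exons are shown because the genes lie side by side and both fell at 6 °C. They are RefSeq sequences of GRCm38.p6, with every CG pair in capitals. The Stat5b stretch is chr11:100850725-100850831 on the minus strand, and the Stat5a stretch is chr11:100860234-100860344 on the plus strand, upstream of a shorter annotated Stat5a transcript and within an intron of the longer one.
Stat5b: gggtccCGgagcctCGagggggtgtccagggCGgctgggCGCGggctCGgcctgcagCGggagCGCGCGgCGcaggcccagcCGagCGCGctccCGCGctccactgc
Stat5a: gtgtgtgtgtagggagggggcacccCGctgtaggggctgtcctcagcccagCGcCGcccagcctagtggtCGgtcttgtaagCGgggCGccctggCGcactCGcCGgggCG
The Stat5b stretch holds 16 CG pairs in 107 bases and is 82.2% G or C, and the Stat5a stretch holds 10 in 111 bases and is 73.0% G or C. The whole windows of 250 bases before these RefSeq starts held 40 CG pairs and 82.0% G or C for Stat5b and 21 and 68.0% for Stat5a, with exon bases in both. Each gene has a second RefSeq start, whose window held 5 CG pairs and 46.4% G or C for Stat5b and 5 and 57.6% for Stat5a. Over 32851 windows of 250 bases before RefSeq starts, the median content was 52.4% G or C, with 6 CG pairs.

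Stat3 carries the leptin and interleukin 6 signals. It had 29.7, 26.2, 28.5 and 31.4 CPM in knockouts at 6 °C, against 34.6, 32.5, 33.3 and 22.9 CPM in knockouts at 22 °C. In wild types it had 27.1, 26.6, 25.0, 32.3 and 28.1 CPM at 6 °C, against 33.3, 30.3, 33.1 and 34.9 CPM at 22 °C. In wild types only replicate 4 at 6 °C entered the 22 °C range. The log2 change at 6 °C was -0.09 ± 0.12 in knockouts (adjusted p = 0.660) and -0.25 ± 0.11 in wild types (95% interval -0.48 to -0.02, adjusted p = 0.103). The wild-type change passed in the limma tests on RPKM, which carries no TMM scaling, with adjusted p-values of 0.0349 and 0.0399. It also passed in the edgeR fit without knockout replicate 4 at 22 °C, with 0.0422.

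Socs2 encodes the SOCS protein that limits growth hormone signalling, and mice without it grow to excess. It had 26.2, 61.2, 48.6 and 23.0 CPM in knockouts at 6 °C, against 3.70, 2.47, 6.34 and 3.16 CPM in knockouts at 22 °C. In wild types it had 58.6, 29.8, 43.9, 43.6 and 43.3 CPM at 6 °C, against 4.26, 17.5, 5.29 and 4.04 CPM at 22 °C. All 9 libraries at 6 °C lay above all 8 at 22 °C. Socs2 rose by 3.30 ± 0.42 on the log2 scale in knockouts (95% interval 2.41 to 4.19, adjusted p = 7.92e-05) and by 2.72 ± 0.41 in wild types (1.87 to 3.58, adjusted p = 0.000178). In both genotypes it was called in each of the 31 other fits tried.

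One library bears on the size of the Socs2 response. Wild-type replicate 2 at 22 °C, the male of that group, had 17.5 CPM, against 4.04 to 5.29 CPM in the other 3. In the same library Ppargc1a and Dio2, cold-induced genes of the brown fat heat programme that were looked up after its Socs2 level had been seen, had 493 and 870 CPM, against 92.4 to 116 and 359 to 588 CPM in the other 3 libraries of the group. Ucp1, the uncoupling protein that makes heat, had 4444 CPM there, inside the range of 3684 to 5141 CPM of the others. What these values contribute to the Socs2 level was not tested. Without this library the Socs2 response of wild types was 3.27 (adjusted p = 3.19e-05). The male of the wild types at 6 °C had 29.8 CPM, the lowest Socs2 level of its group. Within the majority sex the response was 3.47 in male knockouts and 3.38 in female wild types (adjusted p = 0.000130 and 6.87e-05).

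**Figure D3:**
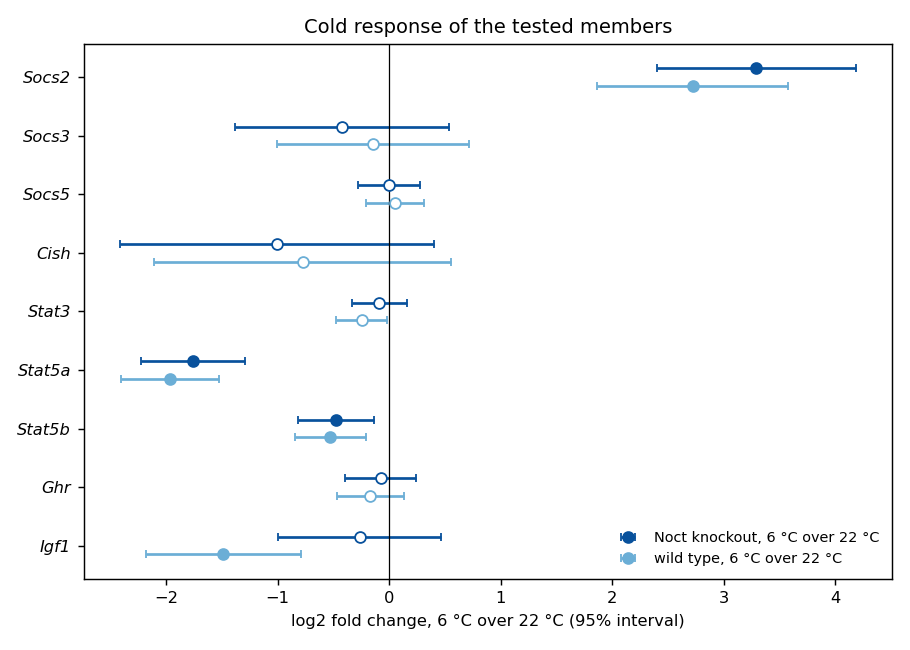
Log2 fold change of each tested member at 6 °C over 22 °C, with the knockout above the wild type in each row; bars are 95% intervals, filled points passed an adjusted p of 0.05 and open points did not. Socs2 lies at 3.30 and 2.72, Stat5a at -1.76 and -1.97, and the interval of Igf1 includes 0 in knockouts and excludes it in wild types.

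Cish, the founding SOCS gene and, like Socs2, a target of STAT5, passed in neither genotype. It had 2.57, 7.15, 9.05 and 4.79 CPM in knockouts at 6 °C, against 8.87, 29.7, 4.47 and 0.958 CPM in knockouts at 22 °C. In wild types it had 4.08, 8.96, 1.13, 4.10 and 4.69 CPM at 6 °C, against 2.56, 9.69, 11.5 and 6.87 CPM at 22 °C. The groups overlapped in both genotypes, and within knockouts at 22 °C the level ran from 0.958 to 29.7 CPM. The log2 change was -1.004 ± 0.67 in knockouts (95% interval -2.41 to 0.40, adjusted p = 0.317) and -0.77 ± 0.63 in wild types (-2.11 to 0.56, adjusted p = 0.389). With each library left out in turn the knockout change ran from -1.41 to 0.08, with edgeR adjusted p-values of 0.0780 and above. The value of 0.08 came without the highest library, knockout replicate 2 at 22 °C. In the fit of all libraries neither interval reached the lower bound of the Socs2 interval in the same genotype.

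Socs3, the inhibitor of the leptin and interleukin 6 branch, was low throughout. It ranged from 0.302 to 0.773 CPM in knockouts at 6 °C, from 0.291 to 1.23 CPM in knockouts at 22 °C, from 0.349 to 0.955 CPM in wild types at 6 °C and from 0.393 to 1.17 CPM in wild types at 22 °C. The groups overlapped, and the log2 change was -0.42 ± 0.45 in knockouts (95% interval -1.38 to 0.53, adjusted p = 0.572) and -0.15 ± 0.41 in wild types (-1.01 to 0.71, adjusted p = 0.823). Its direction was not fixed by these data: it turned positive in male knockouts alone (0.08) and without knockout replicate 1 at 22 °C (0.05), and in wild types without replicate 1 at 22 °C (0.12) or replicate 3 at 6 °C (0.03). STAT dimers bind TTCNNNGAA, which reads the same on both strands, and Socs3 held the single match among 11 windows of 250 bases before the RefSeq starts of the 8 members found in that table, against 7.02% of all 32851 windows. Of the 11 windows 7 overlap an exon that GENCODE vM21 annotates, that of Socs3 included. The stretch is chr11:117969502-117969530 (GRCm38.p6, minus strand), 154 bases before the RefSeq start, with the match in capitals. It overlaps no annotated exon and lies before the coding transcript of GENCODE, which starts at 117969186, but inside the annotated gene, which a transcript without a coding sequence extends to 117970047.
Socs3: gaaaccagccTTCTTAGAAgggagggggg
The match is a string of letters and no binding was measured here.

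Socs5, which acts in interleukin 4 and epidermal growth factor signalling, had the highest mean RPKM level of the SOCS members in each group, but stood below Socs2 at 6 °C when the longest coding transcripts gave the lengths. It ranged from 17.9 to 27.5 CPM in knockouts at 6 °C, from 20.9 to 27.4 CPM in knockouts at 22 °C, from 22.2 to 29.9 CPM in wild types at 6 °C and from 22.6 to 25.7 CPM in wild types at 22 °C. The log2 change was 0.00 ± 0.13 in knockouts (95% interval -0.28 to 0.28, adjusted p = 0.9997) and 0.05 ± 0.12 in wild types (-0.21 to 0.32, adjusted p = 0.788). Socs1, the interferon-induced inhibitor, had 26 reads over all 17 libraries and at most 4 in one. In the 4 libraries with no read, a floor of 3 counts corresponds to 0.0862 to 0.116 CPM, which covers counting error only, and no change in Socs1 could be detected at this depth.

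Between the genotypes no member passed. At 6 °C 0 of 9 were called between knockouts and wild types, where 0.0400% of all tested genes were called by edgeR, and 0 had an unadjusted p under 0.05. At 22 °C 0 of 9 were called, with 0.0160% of all tested genes called, and 1 member, Socs2, had an unadjusted p under 0.05. Its difference, knockout minus wild type, was -1.16 ± 0.42 on the log2 scale (95% interval -2.03 to -0.29, unadjusted p = 0.0122, adjusted p = 0.9975), and the groups overlapped. Without wild-type replicate 2 at 22 °C that difference was -0.26. At 6 °C the Socs2 difference was -0.59 ± 0.42 (adjusted p = 0.9991), and that of Stat5a was 0.45 ± 0.23 at 6 °C and 0.24 ± 0.23 at 22 °C (adjusted p = 0.9991 and 0.9975). DESeq2 called 0 of the 9 as well, at 6 °C with 0.0961% of all tested genes called and 0 members under an unadjusted 0.05, and at 22 °C with 0.0801% called and 1 member under it.

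The cold responses of the genotypes were also compared directly. Of 9 members 0 were called for a difference between the responses, where 0.00801% of all tested genes were called, and 1, Igf1, had an unadjusted p under 0.05. DESeq2 likewise called 0, with 1 member under an unadjusted 0.05 and the same 0.00801% of all tested genes called. The Socs2 responses differed by 0.57 ± 0.55 on the log2 scale, knockout minus wild type (95% interval -0.60 to 1.74), and by 0.09 without wild-type replicate 2 at 22 °C. The Stat5a responses differed by 0.21 ± 0.30 (-0.42 to 0.84). These intervals include 0 and also differences as large as 1.74 for Socs2 and 0.84 for Stat5a, so equal responses were not shown either.

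Sex and genotype were unevenly combined, since 6 of 8 knockouts and 2 of 9 wild types were male, and the model therefore carries a term for sex. Of 9 members 0 were called between males and females, where 0.0641% of all tested genes were called by edgeR, and 1 had an unadjusted p under 0.05 in edgeR and in DESeq2. DESeq2 called 0 members and 0.344% of all tested genes. The member was Stat5a in edgeR, at -0.38 ± 0.18 on the log2 scale, male minus female (unadjusted p = 0.0447, adjusted p = 0.894). Socs2 differed by 0.65 ± 0.32 (adjusted p = 0.934), and by 0.05 without the male wild type at 22 °C. Cish differed by 0.90 ± 0.53 (adjusted p = 0.998).

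The rest of the pathway was covered by 8 lists of 93 further genes, of which 84 were tested. In knockouts 14 rose and 7 fell at 6 °C, 25% of those tested, and in wild types 11 rose and 15 fell, 31%. These shares stand beside the 21.6% and 27.6% of all tested genes. None of the 84 was called between genotypes, between cold responses or between the sexes by edgeR or by DESeq2. An unadjusted p under 0.05 was found by edgeR in 5 of them between genotypes at 6 °C, in 7 at 22 °C, in 4 for the difference between responses and in 8 between the sexes, and by DESeq2 in 6, 7, 5 and 8.

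Among the other 3 SOCS genes, 2 rose in knockouts and 1 in wild types. Socs4, a relative of Socs5, rose by 0.68 ± 0.17 on the log2 scale in knockouts (adjusted p = 0.00687) and by 0.71 ± 0.16 in wild types (adjusted p = 0.00326). Its level was 43.9 ± 12.7 CPM at 6 °C and 27.1 ± 1.66 CPM at 22 °C in knockouts, and 42.9 ± 7.43 CPM at 6 °C and 26.4 ± 3.11 CPM at 22 °C in wild types. Socs7 rose by 0.44 ± 0.12 in knockouts (adjusted p = 0.0152), and in wild types its change was 0.29 ± 0.11 (adjusted p = 0.0638). The wild-type count was 2 without wild-type replicate 4 at 6 °C and 3 without knockout replicate 4 at 22 °C. Among 12 phosphatases and other STAT inhibitors, 3 rose and 1 fell in knockouts, while 2 rose in wild types. Ptpn2, which encodes a phosphatase that removes phosphate from STATs and Janus kinases, rose by 0.49 ± 0.16 in knockouts and by 0.61 ± 0.15 in wild types. Pias3, which encodes an inhibitor of STAT3, fell by 0.47 ± 0.16 in knockouts, and Sh2b1, which encodes a Janus kinase adaptor that enhances signalling, rose by 0.44 ± 0.14 there. In wild types Pias3 averaged 4.40 ± 0.805 CPM at 6 °C and 5.83 ± 0.593 CPM at 22 °C. Sh2b1 averaged 49.4 ± 2.72 CPM at 6 °C and 39.1 ± 5.37 CPM at 22 °C in the same mice. Ptpn11, the phosphatase SHP2, rose by 0.45 ± 0.10 in wild types, and in knockouts it averaged 154 ± 19.7 CPM at 6 °C and 119 ± 9.30 CPM at 22 °C. The knockout calls of this list were weak. Pias3 was called in 9 of 31 alternatives, Sh2b1 in 19 and Ptpn2 in 21, and within male knockouts 0 of the list passed. The knockout count was 1 or 2 without knockout replicates 1, 3 or 4 at 6 °C or without knockout replicates 1, 2 or 3 at 22 °C.

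Among the other STATs and Janus kinases, Tyk2, the Janus kinase of the interferon and interleukin 12 receptors, fell by 0.78 ± 0.19 on the log2 scale in knockouts (adjusted p = 0.00666) and by 0.97 ± 0.17 in wild types (adjusted p = 0.000745). Its level was 3.74 ± 0.986 CPM at 6 °C and 6.39 ± 1.45 CPM at 22 °C in knockouts, and 3.79 ± 0.701 CPM at 6 °C and 7.38 ± 0.280 CPM at 22 °C in wild types. Of 12 interferon target genes, 0 passed in knockouts by edgeR or DESeq2, with 1 under an unadjusted 0.05 in each, and 3 fell in wild types: Gbp3 by 0.64 ± 0.23, Irf1 by 0.62 ± 0.16 and Gbp2 by 0.49 ± 0.17. Irf1 was called in 30 of 31 alternatives, Gbp2 in 16 and Gbp3 in 13, and the count was 1 within female wild types and 1 without any single one of wild-type replicates 1, 2 or 4 at 22 °C, wild-type replicates 1 to 4 at 6 °C, knockout replicates 2 or 3 at 22 °C or knockout replicate 2 at 6 °C. Lymphocytes carry high levels of several of these genes, and the 8 lymphocyte markers, all detected, summed to 0.397 to 1.11 CPM in wild types at 6 °C and 1.45 to 2.51 CPM in wild types at 22 °C, without overlap. In knockouts they summed to 0.802 to 2.30 CPM at 6 °C and 1.29 to 1.99 CPM at 22 °C. Of the 8 lymphocyte markers only 2, Cd4 and Cd3e, passed the low-count filter, and neither was called in either genotype. In wild types their edgeR adjusted p was 0.214 and 0.0819. Others were close to no reads, with Cd3d at a mean of 0.0065 CPM in wild types at 6 °C. The part of lymphocytes in the values of the STAT and interferon genes was not tested.

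Among 19 cytokine receptors, 2 rose and 2 fell in knockouts, and 1 rose and 3 fell in wild types. Ifngr2, a subunit of the interferon gamma receptor, fell by 0.85 ± 0.15 on the log2 scale in knockouts and by 0.96 ± 0.14 in wild types (adjusted p = 0.000998 and 0.000191). Il10rb, a subunit shared by the interleukin 10 family, fell by 0.80 ± 0.13 in knockouts and by 0.75 ± 0.12 in wild types (adjusted p = 0.000384 and 0.000328). Cntfr, the receptor subunit for ciliary neurotrophic factor, rose by 1.27 ± 0.41 in knockouts (adjusted p = 0.0347, called in 20 of 31 alternatives), and Csf2rb, the subunit shared by the interleukin 3 and 5 receptors, fell by 0.93 ± 0.27 in wild types (adjusted p = 0.0176). In wild types Cntfr averaged 24.7 ± 13.8 CPM at 6 °C and 15.4 ± 6.58 CPM at 22 °C. In knockouts Csf2rb averaged 3.51 ± 0.745 CPM at 6 °C and 4.81 ± 1.47 CPM at 22 °C. Of 10 cytokine ligands 4 were tested, and 2 of these fell in knockouts and 4 in wild types. Lep, which encodes leptin, the hormone that fat releases in proportion to its stores, fell by 2.73 ± 0.86 in knockouts (adjusted p = 0.0306) and fell by 3.05 ± 0.78 in wild types (adjusted p = 0.00787). Its level was 0.841 ± 1.10 CPM at 6 °C and 7.59 ± 4.61 CPM at 22 °C in knockouts, and 0.640 ± 0.795 CPM at 6 °C and 5.79 ± 4.77 CPM at 22 °C in wild types. Il15 fell by 1.11 ± 0.32 in knockouts and by 1.33 ± 0.31 in wild types, and Clcf1, a ligand of the ciliary neurotrophic factor receptor, fell by 1.20 ± 0.37 in wild types (adjusted p = 0.0211), while in knockouts its change was 0.97 ± 0.41 (adjusted p = 0.106). The Clcf1 responses differed by 2.17 ± 0.55, knockout minus wild type (unadjusted p = 0.00101, adjusted p = 0.9997), so a difference between genotypes was not shown. Clcf1 was low, at 0.547 ± 0.121 CPM at 6 °C and 0.278 ± 0.208 CPM at 22 °C in knockouts. In wild types it had 0.327 ± 0.0831 CPM at 6 °C and 0.751 ± 0.177 CPM at 22 °C. Its wild-type call was lost without wild-type replicate 1 at 22 °C or replicate 2 at 6 °C, and within female wild types (edgeR adjusted p = 0.0795). Within female wild types 2 ligands passed, and within male knockouts 1 did. Without wild-type replicate 2 at 6 °C the wild-type count was 2. Without any single knockout library, other than replicate 3 at 22 °C, the knockout count was 0 or 1.

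Around Igf1, 17 genes of the insulin-like growth factor axis were listed and 15 tested. In knockouts 6 rose and 1 fell, and in wild types 4 rose and 2 fell. Without knockout replicate 2 at 6 °C the knockout count was 4. Pappa, a protease that frees the growth factor from its binding proteins, rose by 0.90 ± 0.29 on the log2 scale in knockouts and by 1.20 ± 0.27 in wild types (adjusted p = 0.0364 and 0.00391), and the knockout call held in 19 of 31 alternatives. Stc1, which encodes an inhibitor of that protease, rose as well, by 1.09 ± 0.26 in knockouts and by 0.97 ± 0.25 in wild types (adjusted p = 0.00687 and 0.00763). Igfals, the subunit that stabilises the circulating complex and is itself induced by growth hormone in liver, fell by 1.56 ± 0.43 in wild types (adjusted p = 0.0120). In knockouts Igfals averaged 1.12 ± 0.612 CPM at 6 °C and 1.72 ± 0.587 CPM at 22 °C. Irs2, the adaptor of the insulin and growth factor receptors, rose by 1.55 ± 0.43 in knockouts (adjusted p = 0.0163), with a level of 152.5 ± 49.7 CPM at 6 °C and 53.1 ± 35.7 CPM at 22 °C. In wild types Irs2 averaged 197.8 ± 63.0 CPM at 6 °C and 124.1 ± 43.1 CPM at 22 °C. The Irs2 responses differed by 0.88 ± 0.58, knockout minus wild type, and this did not pass (edgeR unadjusted p = 0.149, adjusted p = 0.9997). Of 12 STAT3 and STAT5 target genes, 1 rose in knockouts, and 3 rose and 1 fell in wild types. Bcl2l1, an inhibitor of apoptosis, rose by 0.42 ± 0.15 in knockouts and by 0.62 ± 0.14 in wild types, Bcl6, a repressor of STAT5 targets, rose by 0.67 ± 0.21 in wild types, and Lrg1 fell by 0.63 ± 0.21 there. In wild types the called genes of this list thus moved in opposite directions. The list does not separate genes that STATs induce from genes that they repress, so these directions give no reading of STAT activity. In knockouts Bcl6 averaged 55.8 CPM at 6 °C and 49.9 CPM at 22 °C, and Lrg1 averaged 15.7 CPM at 6 °C and 19.5 CPM at 22 °C. Neither was called there. The knockout call of Bcl2l1, with an adjusted p of 0.0493, was kept in 13 of 31 alternatives and lost within male knockouts (adjusted p = 0.231). The knockout count was 0 without wild-type replicates 3 or 4 at 22 °C, wild-type replicate 2 at 6 °C or knockout replicates 1, 2 or 4 at either temperature, and 2 without wild-type replicate 3 at 6 °C or knockout replicate 3 at 22 °C. In wild types Bcl2l1 was called in 28, Bcl6 in 24 and Lrg1 in 21 of them, and the count was 2 without replicate 3 or replicate 4 at 22 °C.

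**Figure D4:**
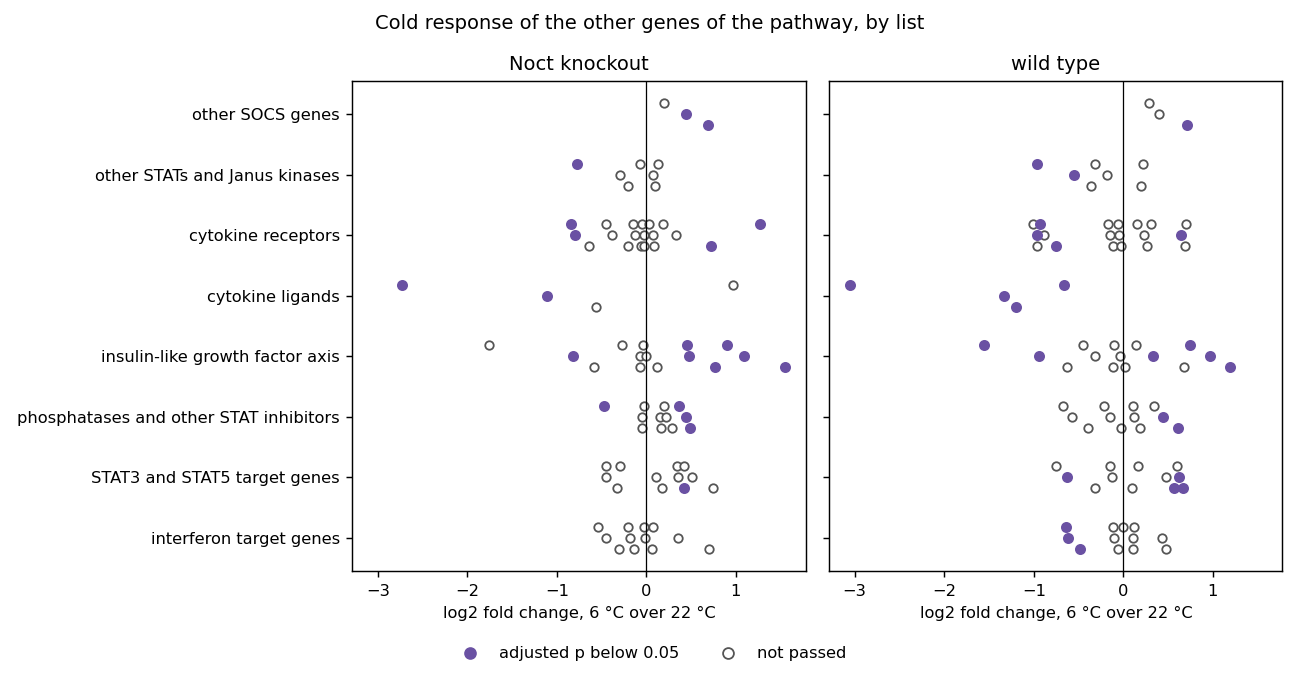
Log2 fold change at 6 °C over 22 °C of the 84 tested genes of the 8 pathway lists, with 1 row per list, the knockout in the left panel and the wild type in the right; filled points passed an adjusted p of 0.05. Of the 4 tested ligands 2 fell in knockouts and 4 in wild types, led by Lep at -2.73 in knockouts and -3.05 in wild types, and called cytokine receptors and growth factor genes lie on both sides of 0.

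To place the members among all genes, the 3 tested genes whose group means lay nearest to those of a member were found over 7808 genes with a mean level of at least 5 CPM, by the largest difference in centred log2 CPM over the 4 groups. Nearest to Socs2 were Atf3, a stress-induced transcription factor, at a difference of 0.14, Mfsd2a, a lipid transporter, at 0.15, and Plk3, a stress-regulated kinase, at 0.23. Socs2 averaged 39.8 CPM in knockouts at 6 °C and 3.92 CPM in knockouts at 22 °C, and Atf3 averaged 23.9 CPM at 6 °C and 2.22 CPM at 22 °C in the same mice. In wild types Socs2 averaged 43.8 CPM at 6 °C and 7.77 CPM at 22 °C, and Atf3 averaged 29.8 CPM at 6 °C and 5.29 CPM at 22 °C. The Socs2 mean of wild types at 22 °C includes replicate 2, at 17.5 CPM. Nearest to Igf1 were Sh3pxd2a, a scaffold of cell protrusions, at 0.09, and the interferon-inducible GTPases Irgm2 at 0.17 and Gbp4 at 0.20. The Igf1 levels of the knockout groups overlapped, and its genotype differences did not pass, so this likeness rests in part on means within the spread. The nearest to Cish were Klb, Scarb1 and Clec14a, and to Socs3 Ruvbl2, Ggta1 and Pabpn1, but both members had groups that overlapped throughout, so that these likenesses rest on means within the spread of the libraries.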

How the data were processed

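Brown adipose tissue of 17 mice was sequenced. The authors deposited raw read counts by gene symbol and RPKM values, which equal those counts divided by gene length and library total. The tools STAR and HTSeq and the builds mm10 and GRCm38.p6 are named per the submitters' processing notes; versions and the strand setting are not given in the labels. Every per-sample column matched a sample.

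The analysis used edgeR 4.0.16 (R 4.3.3). The filter was filterByExpr by group, which kept 12486 genes, with TMM scaling. A single quasi-likelihood fit over the 17 libraries held the 4 group means and labelled sex (12 residual degrees of freedom). P-values were adjusted by Benjamini-Hochberg over all tested genes at 0.05, with no minimum fold, and intervals have a confidence level of 95%. The scripts were tested on simulated data. Alternatives used DESeq2 1.42.0, limma 3.58.1 on log2(RPKM + 1) and log2(RPKM + 0.1), other filters, scalings, covariates and sample sets, and each library left out in turn. Levels per longest coding transcript (GENCODE vM21) were a later alternative, chosen once the values were known. Replicates are separate mice. No 2 libraries were identical.

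The named genes are Noct, the 10 members, up to 3 called genes of each pathway list and comparison with the largest change (or up to 2 abundant ones where none passed), and the 3 genes nearest to Socs2, Cish, Socs3 and Igf1. One gene that this rule names is not reported here, although counts over the pathway lists include it. Members and lists were chosen with earlier results of these data known. The main fit did not treat the samples as paired by replicate number. Reads carry no molecular identifiers, so the count floor covers counting error only. Sequences are from RefSeq, and 8 of 10 members matched its promoter table.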

Additional observations from a re-analysis of the deposited data

Results flagged for a closer look

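Socs2 in wild types at 22 °C held 1 library far from the rest. Replicate 2 had 17.5 CPM, and the other 3 libraries had 4.04 to 5.29 CPM, so that the gap to its nearest neighbour exceeded Dixon's critical value for 4 samples. It was the 1 flag among 40 combinations of gene and group tested, and chance alone flags about 1 in 20. The Socs2 cold response of wild types was 3.27 on the log2 scale without this library and 2.72 with it.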

How the results depend on the processing

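Socs2 and Stat5a kept their direction and their call in both genotypes under all 31 alternatives, with Socs2 between 1.73 and 3.56 on the log2 scale in knockouts and between 1.58 and 3.38 in wild types. Stat5a lay between -1.88 and -1.39 in knockouts and between -2.16 and -1.66 in wild types. With each library left out in turn, 2 to 3 members were called in knockouts and 4 to 5 in wild types, and 0 in the genotype, response and sex comparisons. Against a fold of 1.5 the members called in wild types were 2 in place of 4. Of all genes this test called 340 in knockouts and 381 in wild types, against 2697 and 3450. In knockouts 1589 genes were called when only the groups compared were fitted and 1647 within the majority sex. Counts of all genes ran from 3 to 14 (main 5) for genotype at 6 °C, from 0 to 10 (main 2) at 22 °C and from 1 to 43 (main 8) for sex. The Igf1 fall in wild types missed the threshold only against a fold of 1.5 (adjusted p = 0.0537). The Stat5b fall in knockouts was also lost with no sex term (adjusted p = 0.0539), with labelled age (0.0705), on RPKM (0.0683 and 0.0678) and against a fold of 1.5, which also removed the call in wild types.

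Values within their error changed sign. Socs5 turned to -0.13 and -0.15 in wild types on RPKM, which carries no TMM scaling. In knockouts it turned to -0.0027 with no filter, -0.0078 with the CPM filter, -0.0823 within the majority sex, and -0.0648 and -0.0773 on RPKM. Socs3 turned to 0.0793 in male knockouts, and the Stat5a genotype difference at 22 °C to -0.13 within the majority sex. With libraries left out, the range of cold responses in knockouts was -0.694 to 0.0496 for Socs3, -0.0926 to 0.131 for Socs5, -1.41 to 0.0828 for Cish, -0.605 to 0.0613 for Igf1 and -0.213 to 0.0371 for Ghr. In wild types it was -0.354 to 0.123 for Socs3 and -0.0105 to 0.102 for Socs5. Over the 31 alternatives the called genes of a pathway list ran from 0 to at most 8 in knockouts and 7 in wild types, against at most 7 and 6 in the fit reported. The count moved by over 1.5 times in 21 of them for STAT3 and STAT5 targets, 14 for phosphatases and inhibitors and 10 for ligands in knockouts, and in 13 for interferon targets in wild types. The causes were not tested.

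The labels give no pairing by replicate number. Of 24 same-number pairs 11 correlated above 0.1, as did 27 of 84 other pairs, and these shares cannot exclude a pairing. With a replicate block and sex, 3 members were called in knockouts, 4 in wild types and 0 in each other comparison. With a replicate block without sex, 2 were called in knockouts, where Stat5b was lost (adjusted p = 0.0806), and 4 in wild types. Under the block Socs5 in knockouts turned to -0.0043 with sex and -0.0047 without it, and the Cish sex difference to -0.98 with sex. Both blocks called 1 phosphatase or inhibitor, 1 interferon target and 0 STAT3 and STAT5 targets in knockouts. In wild types 2 ligands were called with the block and sex, and 2 STAT3 and STAT5 targets with the block alone.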
